A study of Drosophila melanogaster with 4 samples.

Results

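The regions described here are the stretches of chromatin bound by HP1b in the 2 Mb next to the centromere on 4 chromosome arms of the fruit fly Drosophila melanogaster. They were taken by position alone, as all regions of significant enrichment of the study's combined list that lie in the centromere end of 2L, 3L, 3R and X. The centromere lies past the last base of 2L, 3L and X and before the first base of 3R. On genome build FlyBase release 5, which the lists use, the stretches run from 21011545 to 23011544 on 2L, from 22543558 to 24543557 on 3L, from 1 to 2000000 on 3R and from 20422828 to 22422827 on X. The rule gave 353 of the 7807 enriched regions of the combined list (4.52%), with 142 on 3R, 82 on 2L, 71 on X and 58 on 3L. No region of the combined list crossed the 2 Mb limit. The other long arm, 2R, is outside this selection.

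HP1b was mapped by chromatin immunoprecipitation and sequencing (ChIP-seq) in head nuclei of adult Oregon-R flies, a wild-type laboratory strain, with the antibody Q4114 against HP1b. Both ChIP samples, replicates 1 and 2, share this genotype, stage and tissue, and so do the 2 input samples of chromatin that was not immunoprecipitated. The stage is labelled Mixed Adult, heads hold many cell types, and no treatment or other genotype enters the series. The lists of regions hold no expression values, so the tissue could not be checked against marker genes. Replicates 1 and 2 have their own lists of enriched regions (6687 and 6471 in all), called clusters here. The third list, of the replicate set, is called the combined list. Read depth is unknown for every sample.

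HP1 proteins bind chromatin through a chromodomain, which recognises a methylated histone tail, and pair with each other and with partner proteins through a chromoshadow domain. HP1a, the founding fly member, is concentrated in the repeat-rich heterochromatin around the centromeres, where it takes part in gene silencing. HP1b is its paralog and is known to occupy both heterochromatin and euchromatin. Towards the centromere each arm sequence passes from gene-rich euchromatin into the outer part of this pericentric heterochromatin.

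HP1b clusters were sparse next to the centromere of 3L and X, and somewhat sparser than elsewhere on 2L. Over the 2 Mb as a whole they were denser than elsewhere on 3R. Coverage, the share of a stretch that lies under clusters, was 4.54% in replicate 1 and 4.95% in replicate 2 in the proximal 2 Mb of 3L. The rest of 3L was covered over 14.4% and 13.7%. On X the proximal 2 Mb had 7.59% and 7.61%, and the rest of the arm 19.1% and 18.5%. On 2L the proximal values were 11.1% and 11.8%, against 13.7% and 13.05% for the rest. On 3R they were 16.6% and 16.2%, against 13.7% and 13.02%. Thus 3L, X and 2L were lower next to the centromere in each replicate and 3R was higher in each.

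The proximal coverage was 0.339 ± 0.0323 times that of the rest on 3L, 0.405 ± 0.0109 times on X, 0.857 ± 0.0639 times on 2L and 1.23 ± 0.0240 times on 3R (SD, n = 2 each). The difference, proximal minus rest, was -9.27 ± 0.770 percentage points on 3L, -11.2 ± 0.480 on X, -1.92 ± 0.920 on 2L and 3.02 ± 0.207 on 3R (SD, n = 2 each). These differences exceeded the spread between replicates on all 4 arms, by the least on 2L. When only clusters at or above the median score of their own list were counted, the ratio of 2L was 1.06, on the other side of 1, and those of the other arms kept their side. For the proximal 1 Mb alone the ratios were 0.207 on 3L, 0.332 on X, 0.889 on 2L and 1.07 on 3R. On 3R mean coverage was 25.03% between 1000 and 1500 kb from the end, against 13.4% in the rest of the arm. The other 500 kb steps of proximal 3R had 17.3%, 11.7% and 11.6%. With 2 replicates, an exact two-sided sign-flip permutation test over samples cannot give a p below 0.5, so no test of these differences was made. The labels do not say whether the replicates came from separate collections of flies, so the spread may be technical.

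**Figure D1:**
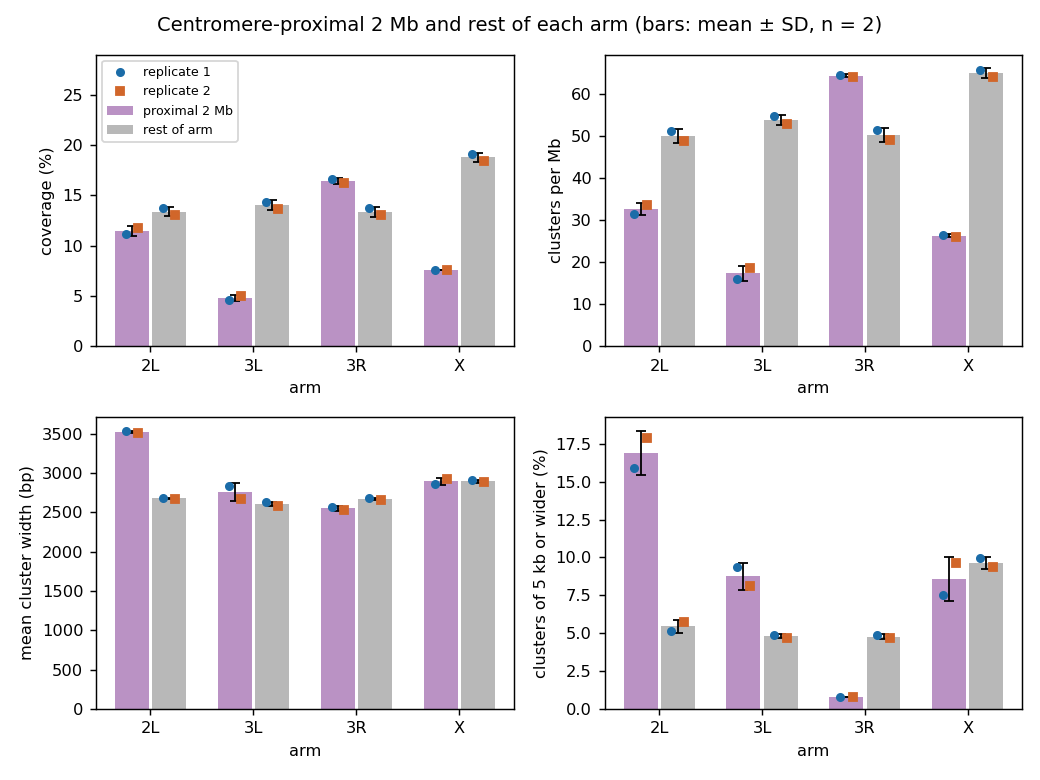
Coverage (%), clusters per Mb, mean cluster width (bp) and share of clusters of 5 kb or wider (%) in the proximal 2 Mb and in the rest of each of 4 arms. Bars are means with SD (n = 2) and points are the replicates; the proximal density is 17.2 per Mb on 3L and 64.2 per Mb on 3R, and the share of wide clusters is highest on proximal 2L.

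Set among stretches of the same size, the proximal 2 Mb was the least covered of 12 stretches of 3L and the least covered of 11 of X, in both replicates and in the combined list. The next lowest 2 Mb stretch had 8.84% and 8.73% on 3L, and 15.2% and 14.4% on X. On 2L it ranked 5 of 11 from the lowest, also in every list. On 3R it ranked 12 of 13 from the lowest, and a single stretch, with 19.4% and 18.3%, was covered more. The 2 Mb that follows on 3R was the least covered stretch of that arm in replicate 1, with 10.2%. It also had 10.2% in replicate 2, where another stretch was lower, with 9.80%.

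The number of clusters, more than their width, followed the coverage on 3L, X and 3R. Proximal 3L held 32 clusters in replicate 1 and 37 in replicate 2, which is 17.2 ± 1.77 per Mb against 53.7 ± 1.22 per Mb in the rest (SD, n = 2). Proximal X held 53 and 52, or 26.2 ± 0.354 per Mb against 64.8 ± 1.18. Proximal 3R held 129 and 128, or 64.2 ± 0.354 per Mb against 50.1 ± 1.61 (SD, n = 2). The mean width next to the centromere was 1.06 ± 0.0316 times that of the rest on 3L, 0.999 ± 0.0222 times on X and 0.956 ± 0.00676 times on 3R (SD, n = 2).

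On 2L the clusters next to the centromere were fewer and broader. They numbered 63 in replicate 1 and 67 in replicate 2, a density of 32.5 ± 1.41 per Mb against 49.9 ± 1.65 per Mb in the rest of the arm (SD, n = 2). Their mean width was 3524 ± 11.7 bp against 2680 ± 3.62 bp, and the median width was 3033 and 2755 bp in replicates 1 and 2, against 2267 and 2272 bp. Those at least 5 kb wide were 10 of 63 (15.9%) and 12 of 67 (17.9%), against 5.13% and 5.76% in the rest of 2L. On 3R the share of wide clusters went the other way, 1 of 129 (0.775%) and 1 of 128 (0.781%) against 4.89% and 4.65%. On 3L it was 3 of 32 (9.38%) and 3 of 37 (8.11%), against 4.87% and 4.70%, a difference that rests on 3 clusters. On X the replicates fell on either side of the rest of the arm, with 7.55% against 9.93% in replicate 1 and 9.62% against 9.34% in replicate 2.

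Of the 28 proximal regions of the combined list that were 5 kb or wider, 13 lay on 2L, 8 on X, 4 on 3L and 3 on 3R. All 28 overlapped clusters of both replicates by at least 1 bp, which is the general rate for regions of this width, 99.8% in the whole combined list. The widest, 11.4 kb, lay on 2L from 22959329 to 22970685, at 40.9 kb from the centromere end. A single cluster lay under it in each replicate, 10759 bp wide in replicate 1 and 11332 bp in replicate 2. The next, 9.79 kb on 2L from 22867567 to 22877357, was 6854 bp wide in replicate 1 and 8413 bp in replicate 2. These broad regions of 2L were spread over the whole 2 Mb, from 40.9 kb to 1746 kb from the end. The widest region of X spanned 8.04 kb from 21886390, that of 3R 7.86 kb from 222600 and that of 3L 6.56 kb from 24525945. The second in width were 6.19 kb on X from 20912045, 6.35 kb on 3L from 23087408 and 5.73 kb on 3R from 1341605, the last made of 1 cluster in replicate 1 and 2 in replicate 2.

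The score is the authors' own value for each region, with no formula or scale stated in the sources at hand, and it was used to rank clusters within a list. By rank, proximal clusters of X, 2L and 3R stood higher in both replicates than those of the rest of their arm, by the least on 3R. The median percentile of proximal X clusters in the list of their replicate was 65.8 and 65.6, against 55.5 and 53.3 in the rest. For 2L it was 61.6 and 58.5 against 46.9 and 48.6. For 3R it was 50.4 and 56.1 against 49.4 and 51.1, and for 3L, 50.2 and 37.8 against 46.3 and 46.6, so that the replicates of 3L disagreed in direction. Among clusters 2 to 3 kb wide, a comparison added after the values were seen, the mean difference of the medians, proximal minus rest, was -2.79 percentiles on 2L and -1.33 on X. Its replicates were -0.0598 and -5.52 on 2L and, in opposite directions, -7.41 and 4.74 on X. Over clusters of all widths, the difference in the combined list was 15.0 percentiles on 2L, 4.26 on 3R, 2.75 on X and -16.4 on 3L. Score and width went together in that list, with a Spearman's rho of 0.682 over the 353 regions, given as a description since regions share their libraries.

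**Figure D2:**
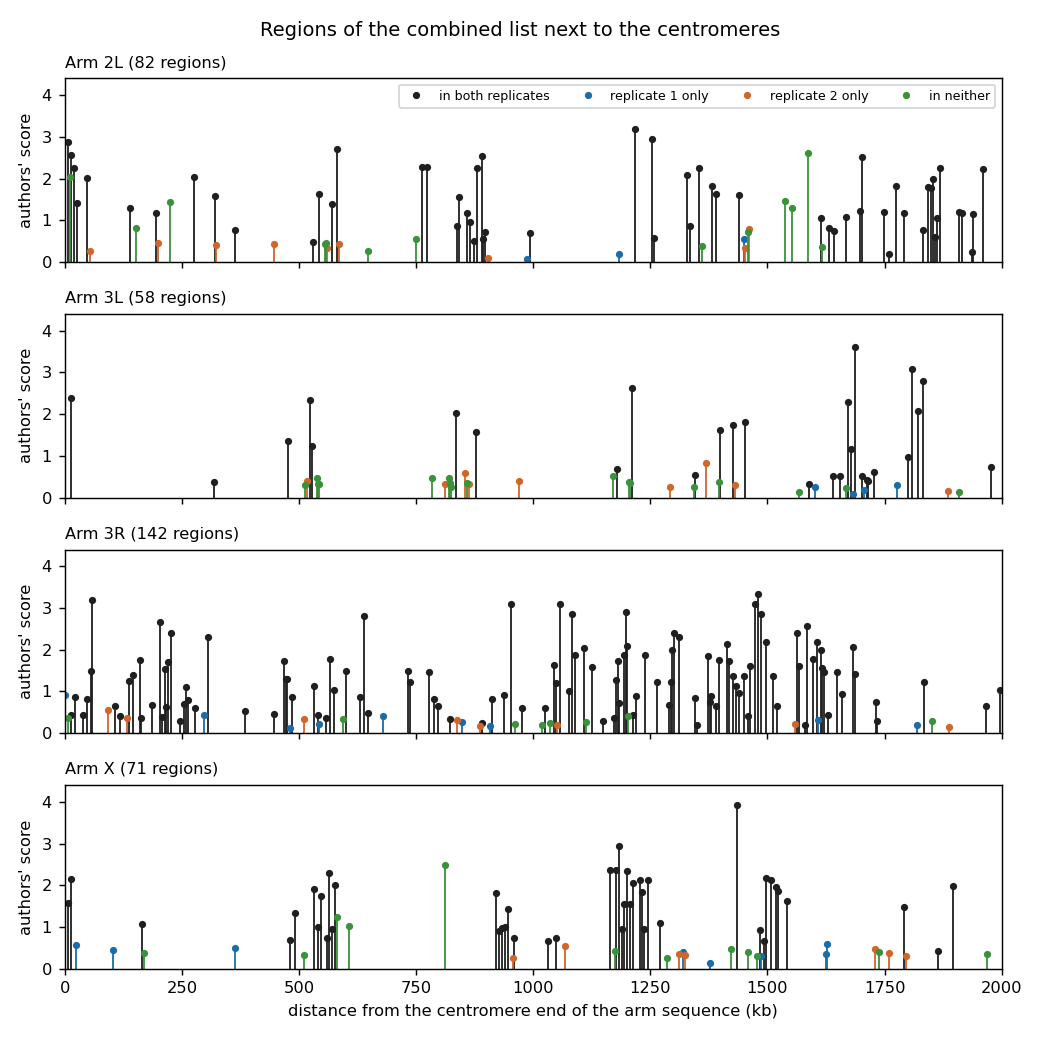
The 353 regions by distance from the centromere end (kb) and authors' score in the combined list, 1 panel per arm, coloured by overlap with replicate clusters. Regions stand in groups with long empty stretches between them on 3L and X, while those of 3R fill most of the 2 Mb.

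The region of highest score next to a centromere lay on X from 20986801 to 20989422, 1433 kb from the centromere end. Its score of 3.91 placed it at rank 11 of the combined list, and the cluster under it had rank 10 in both replicate lists. On 3L the highest lay from 22855754 to 22859502 (score 3.61, rank 34), followed by 22733450 to 22737644 (3.09) and 22709374 to 22711988 (2.80). All 3 were in the outer part, between 1684 and 1832 kb from the end. On 3R the region from 1479373 to 1481992 (3.32, rank 73) and that from 1472673 to 1476013 (3.11) lay close together, and the region from 57002 to 59845 (3.19) lay near the end. Those of 2L were 21793777 to 21796452 (3.18, rank 123), 21756110 to 21759103 (2.95) and 23002403 to 23004597 (2.89).

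The other high regions of X were 21235627 to 21241687 (2.95), found in both replicates, and 21611552 to 21612552 (2.49), found in neither. Of the 353 regions, 36 (10.2%) stood above percentile 90 of the combined list by score, about the share this limit sets for the whole list. By arm they were 16 on 3R (11.3% of its regions), 8 on 2L (9.76%), 6 on 3L (10.3%) and 6 on X (8.45%). The lowest score of all 353 was 0.0866, on 2L from 22023652 to 22025213, where replicate 1 alone had a cluster.

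HP1b clusters reached close to the end of each arm sequence. The region of 2L nearest to the end, 23002403 to 23004597, lay 6.95 kb from it and was also the third of that arm by score. It had a score of 2.83 in replicate 1 and 2.79 in replicate 2. The nearest region of 3L, from 24525945 to 24532508, lay 11.05 kb from the end and was the widest of that arm, with 6131 bp in replicate 1 and 6545 bp in replicate 2. The nearest regions of X were 22414016 to 22416368, at 6.46 kb, and 22405447 to 22411601, at 11.2 kb, both found in both replicates. These 4 regions stood at percentiles 75.5 to 96.8 of the combined list by score. The region of 3L next in distance, from 24223689 to 24225696, lay 317.9 kb from the end and stood lower, at percentile 23.5. The region of 2L next in distance, from 22999498 to 23001374 (score 2.03), overlapped no replicate cluster.

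On 3R the combined list opened with a region deposited as 0 to 1532, taken here to begin at 1, with a score of 0.913 (percentile 54.2). Replicate 1 had a cluster from 5 to 1626, and the first cluster of replicate 2 began at 10829. The region next in distance on 3R, from 6092 to 7154 (percentile 21.7), was found in neither replicate. The bases of 3R nearest the centromere end were thus covered in 1 replicate only.

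In windows of 100 kb the arms differed in pattern as well as in level. No window of proximal 3R was without cluster sequence in either replicate. Of 20 windows per arm, replicate 1 and replicate 2 had 5 and 7 empty on X, 6 and 5 on 3L, and 4 and 4 on 2L. Over the 4 arms, 15 and 16 of 80 windows were empty (18.8% and 20.0%), against 32 and 49 of 898 windows in the rest of the arms (3.56% and 5.46%). The combined list had 7 empty windows of the 80. Windows covered above the median window of the rest of their arm numbered 13 and 12 of 20 on 3R, 8 and 10 on 2L, 3 and 4 on X and 2 and 1 on 3L, in replicates 1 and 2.

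**Figure D3:**
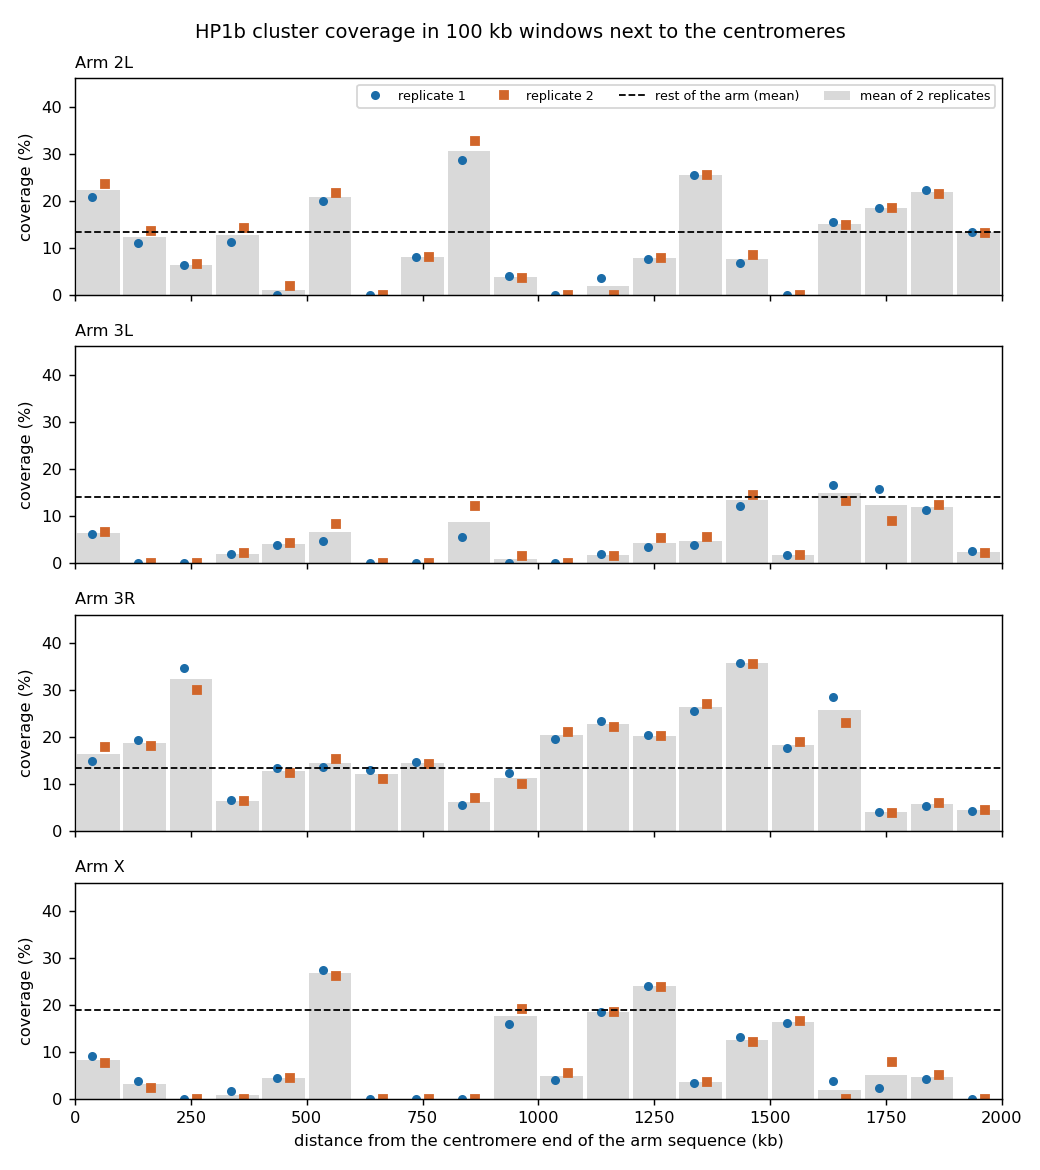
Coverage (%) of each 100 kb window against distance from the centromere end (kb), 1 panel per arm, with both replicates as points, their mean as bars and the mean of the rest of the arm as a dashed line. Windows of 3R reach 35.6% and none is empty, while on 3L the only mean bars above 10% lie between 1400 and 1900 kb, against a dashed line at 14.01%.

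The densest windows were found on each arm by the mean of the replicates. On 3R the window from 1400001 to 1500000 had 35.6% and 35.5% in replicates 1 and 2, and the one from 200001 to 300000 had 34.6% and 29.97%. On 2L the window from 22111545 to 22211544 had 28.7% and 32.6%, and that from 21611545 to 21711544 had 25.4% in each. On X the windows from 21822828 to 21922827 (27.5% and 26.03%) and from 21122828 to 21222827 (24.0% and 23.8%) were far above the median window of proximal X, which had 3.94% and 4.71%. These X windows exceeded the mean of 18.8% of the rest of the arm. They lay below percentile 90 of the 100 kb windows there, which was 35.0% in replicate 1 and 34.3% in replicate 2. On 3L the densest windows, from 22843558 to 22943557 (16.6% and 13.1%) and from 23043558 to 23143557 (12.1% and 14.3%), were at about the mean level of the rest of 3L. Percentile 90 of the windows there was 27.5% and 25.9%. The 5 densest of the 20 windows held 67.1% and 68.4% of the cluster sequence of proximal X, 68.1% and 61.4% on 3L, 52.6% and 53.0% on 2L and 44.5% and 42.5% on 3R.

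Coverage by distance took a different course on each arm. On 3L it was 2.46% ± 0.104 in the first 500 kb, 3.18% ± 1.68 in the next, then 4.75% ± 0.738 and 8.58% ± 1.36 (SD, n = 2), and beyond the 2 Mb it was 6.35% ± 0.0926 in the next step and 13.9% ± 0.122 between 2500 and 3000 kb. On X the first 500 kb had 3.33% ± 0.713 and the third 12.6% ± 0.0979, but the last 500 kb of the 2 Mb had 5.58% ± 0.417, with 14.4% ± 0.330 in the step beyond. On 3R the values were 17.3% ± 0.632, 11.7% ± 0.211, 25.03% ± 0.170 and 11.6% ± 0.506, and the step beyond the limit had 9.64% ± 0.102. On 2L the values were 10.9% ± 1.48, 12.6% ± 0.748, 8.50% ± 0.213 and 13.7% ± 0.168 (SD, n = 2), so that the third step was the lowest, against 13.4% in the rest of the arm.

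**Figure D4:**
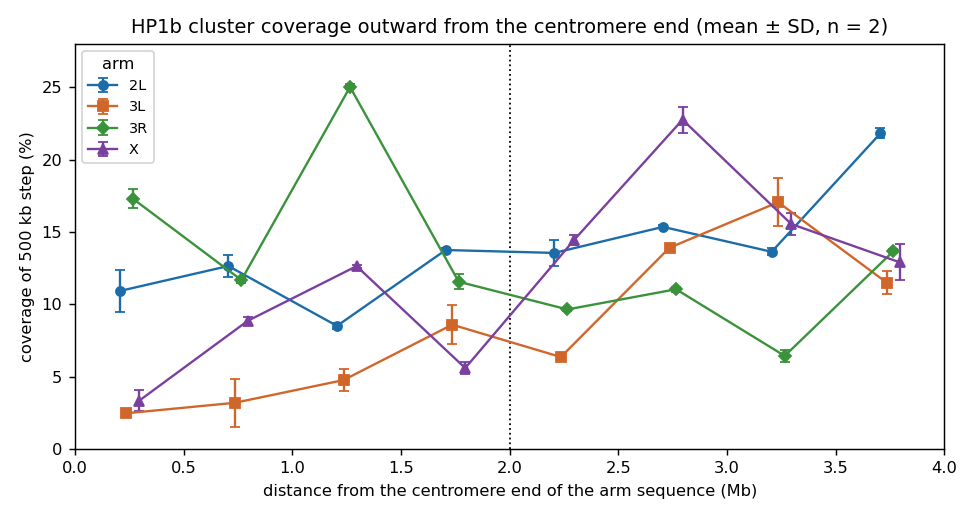
Coverage (%) in steps of 500 kb from the centromere end to 4 Mb (x axis in Mb) for 4 arms, as mean ± SD of 2 replicates; the dotted line marks the 2 Mb limit. 3L and X start at 2.46% and 3.33%, whereas 3R peaks at 25.03% between 1000 and 1500 kb.

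The first 1 Mb had 0.426 ± 0.154 times the coverage of the second on 3L, 0.670 ± 0.0433 times on X and 0.792 ± 0.0158 times on 3R, lower in both replicates on each of these arms. On 2L the ratio was 0.976 in replicate 1 and 1.14 in replicate 2, which differ in direction. The innermost 100 kb of 2L, with 20.9% and 23.5%, was covered more than the rest of that arm in both replicates. The innermost 100 kb of 3R had 14.8% and 17.9%, that of X 9.10% and 7.54% and that of 3L 6.13% and 6.55%.

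Long stretches without clusters separated the groups of regions on 3L and X. On 3L, 300.6 kb from 24225675 to 24526321 were free in replicate 1 and 300.3 kb from 24225685 to 24525935 in replicate 2, a stretch that begins 17.2 kb and 17.6 kb from the end. A further stretch of 3L was free over 304.3 kb from 23709080 to 24013336 in replicate 1 and over 280.1 kb from 23733045 to 24013193 in replicate 2. The combined list had regions in this stretch, and its longest free part there was 239.7 kb, from 23759505 to 23999160. On X the longest ran over 339.6 kb from 21504390 to 21844038 in replicate 1 and 338.1 kb from 21505948 to 21844016 in replicate 2. In the combined list this X stretch held the region at 21611552 named above and those at 21815836 and 21840793, all found in neither replicate. The longest free stretch of X in that list was 203.3 kb, from 21612553 to 21815835. On 2L the longest was 177.3 kb from 22250921 in replicate 1 and 221.7 kb from 21796443 in replicate 2, so the replicates differed in which stretch came out longest. On 3R it was 130.7 kb from 1835444 in replicate 1 and 96.9 kb from 1734837 in replicate 2. The longest free stretches in the rest of the arms were not measured. In replicates 1 and 2 the median gap between clusters was 21.6 and 19.7 kb on proximal 3L, against 6.86 and 7.13 kb in the rest. On X it was 6.11 and 5.39 kb, close to the 5.07 and 5.09 kb of the rest. The lists do not show assembly gaps or unmappable repeats, and their part in the empty stretches was not tested.

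How many regions recurred in the replicates was lowest on 3L and highest on 3R. Of the 353 regions, 246 (69.7%) overlapped clusters of both replicates by at least 1 bp, against 75.0% of the whole combined list and 76.0% of the 5743 regions in the rest of the 4 arms. By arm it was 28 of 58 (48.3%) on 3L, 44 of 71 (62.0%) on X, 57 of 82 (69.5%) on 2L and 117 of 142 (82.4%) on 3R. The rest of the same arms had 76.0%, 73.1%, 76.9% and 78.3%. Regions found in neither replicate numbered 50 of 353 (14.2%), against 11.0% of the whole combined list, with 17 of 58 on 3L, 12 of 71 on X, 13 of 82 on 2L and 8 of 142 on 3R. No test was made of these shares, because regions of a single list are not replicates.

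**Figure D5:**
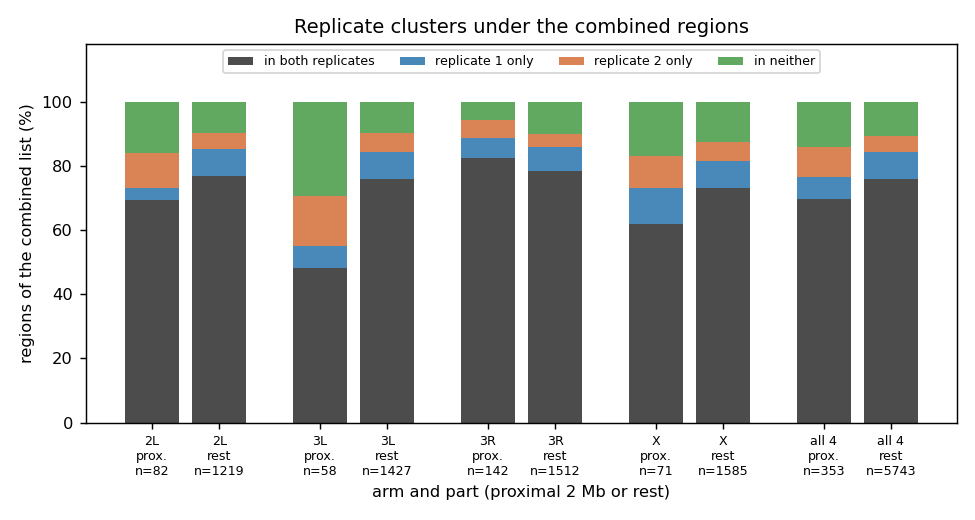
Share of combined regions (%) that overlap clusters of both replicates, of 1 replicate or of neither, for the proximal 2 Mb (prox.) and the rest of each arm, with the number of regions under each bar. Proximal 3L has the lowest share in both replicates, 48.3%, and proximal 3R the highest, 82.4%.

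The median region found in both replicates had a score of 1.32 and spanned 2736 bp, against 0.378 and 1272 bp for those found in neither. Of the 50 proximal regions found in neither, the width of 27 was under 1301 bp, which is the narrowest cluster in either replicate list. Even so, 9 of the 50 had a score at or above the median of the combined list, 6 on 2L and 3 on X. The same count was not made for the 862 regions of the whole combined list found in neither replicate. Such regions with high scores also lay elsewhere, up to 3.73 in the rest of 3R and 2.14 in the rest of X. The highest, 2.61, lay on 2L from 21424043 to 21425210, and the nearest replicate clusters were 25.5 kb and 25.6 kb away. A pair more, at 21458292 and 21473447, stood in the same 2L window, from 1500 to 1600 kb, which was empty in both replicates. These 9 were singled out after their values were seen.

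Relative to the rest of the arm, replicate 2 had more coverage next to the centromere than replicate 1 on all 4 arms. The coverage ratios of replicates 1 and 2 were 0.812 and 0.903 on 2L, 0.316 and 0.362 on 3L, 1.21 and 1.24 on 3R and 0.397 and 0.412 on X. Replicate 2 was the more covered replicate in 38 of 80 proximal windows (47.5%), against 284 of 898 (31.6%) in the rest of the arms. Replicate 1 was the more covered in 29 and 583 of them, and 13 and 31 were equal. By arm the counts with replicate 2 higher were 12 of 20 on 2L (36.7% of windows in the rest), 11 on 3L (26.2%), 8 on 3R (28.2%) and 7 on X (36.8%). Equal proximal windows numbered 3 on 2L, 5 on 3L, 0 on 3R and 5 on X. On 3L, 28 of 37 replicate 2 clusters (75.7%) had a counterpart in replicate 1, against 92.9% in the rest of that arm, while 28 of 32 replicate 1 clusters (87.5%) had a counterpart in replicate 2, against 89.3%. Among 241 clusters matched 1 to 1, the score was higher in replicate 2 for 161 (66.8%), against 54.1% of 4257 matched clusters in the rest. By arm the share was 74.4% on X (50.8% in the rest), 72.2% on 2L (58.4%), 64.3% on 3L (54.8%) and 62.1% on 3R (53.4%). These shares compare scores as deposited, and whether the 2 lists share a scale is unknown. In percentiles of the own list, the median difference, replicate 2 minus replicate 1, was 0.521 next to the centromeres and -1.34 in the rest. By arm it was 1.99 on 2L (-0.675 in the rest), 1.80 on 3L (-0.945), 0.802 on X (-2.20) and -0.445 on 3R (-1.31). With 1 list per replicate, this difference between replicates has no replicate check.

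The replicates ranked the proximal windows and clusters much alike. Over the 80 windows, coverage in replicates 1 and 2 had Pearson's r = 0.974 and Spearman's rho = 0.969, and within arms r lay between 0.872 on 3L and 0.987 on 2L. Over the 241 matched clusters the scores had r = 0.945 and rho = 0.944. Windows and clusters of a library are not independent samples, so these values describe the lists and carry no p. The largest difference in a window was 6.80 percentage points, on 3L from 1700 to 1800 kb, with 15.7% in replicate 1 and 8.94% in replicate 2.

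The limit of 2 Mb cut through no region, and the values on both sides of it were mixed. The regions just inside began or ended at 21050880 on 2L (score 2.23), 22564267 on 3L (0.742), 1997729 on 3R (1.03) and 20453803 on X (0.357). Those just outside were at 20997599 on 2L (0.267), 22402474 on 3L (2.53), 2159242 on 3R (0.557) and 20397186 on X (1.11). Genes at these positions are not named, since the available gene table belongs to release 6 and positions were not converted between builds.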

How the data were processed

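The data are 3 lists of regions as the authors deposited them, 1 per ChIP replicate and 1 for the replicate set. The submitters' processing notes name Bowtie 0.12.7 as the tool for the reads, and positions are on FlyBase release 5, per the file headers. The sources used here do not give the region caller, its threshold, how the inputs entered or how replicates were combined. Every region carries the authors' score, deposited with no formula. It was used to rank or filter within a list, and to compare matched clusters between the 2 replicate lists. A region deposited with start 0 was set to start at 1. The 2 inputs have no list of their own here and enter no comparison.

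Coverage, number, width, score percentile and median gap were computed for the proximal 2 Mb and the rest of 4 arms, from arm lengths in the file headers. The longest free stretches were taken in the proximal 2 Mb only. Python 3.11.15 was used (pandas 2.3.3, numpy 2.4.6, scipy 1.17.1), with figures by matplotlib 3.10.9. Coverage was clipped at the limit, and lists were matched at 1 bp overlap. Interval code was checked on 20 simulated lists, with exact agreement in 20. Named regions are, per arm, the 3 of highest score, the 2 widest, the 2 nearest the end and those at the limit, plus the lowest score and longest free stretches. The members, lists and comparisons were chosen with earlier results of these data known. Median scores were compared by percentile, since the scale of the score is unknown. Alternatives were other proximal sizes, window sizes, overlaps, the combined list, higher-scoring clusters and each replicate left out.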

Additional observations from a re-analysis of the deposited data

Results flagged for a closer look

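The contrast of the proximal 2 Mb with the rest of the arm went in opposite directions on different arms in every replicate. The coverage ratio was 1.23 on 3R, above 1 in 2 of 2 replicates, and 0.857 on 2L, 0.339 on 3L and 0.405 on X, below 1 in 2 of 2 replicates each. The share of clusters of 5 kb or wider, proximal over rest, was 3.10 times on 2L and 1.82 times on 3L, above 1 in both replicates, and 0.163 times on 3R, below 1 in both. The value of 3R rests on 1 wide cluster per replicate and that of 3L on 3. These differences between arms were not tested.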

How the results depend on the processing

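Of the alternatives run for the 4 coverage ratios and the share of regions in both replicates, 17 stayed within the replicate or counting spread, 13 moved beyond it and 1 changed side. The 17 include every setting that left out a replicate, whose outcome was fixed in advance. Among the other alternatives, more moved than stayed. With higher-scoring clusters only, the ratio of 2L became 1.06, while 3L had 0.379 and X 0.433. With the combined list 3L had 0.435 and X 0.429. With the proximal 1 Mb the ratios were 0.207 on 3L, 1.07 on 3R and 0.332 on X. With 3 Mb they were 0.936 on 2L, 0.461 on 3L, 1.07 on 3R and 0.599 on X. Leaving out the 2 Mb at the telomere end moved none beyond the spread. The share in both replicates was 94.2% of higher-scoring regions and 75.9% of regions as wide as replicate clusters. These filters were applied to the proximal regions only, so no general rate stands beside these shares. Leaving out a replicate keeps each ratio within the spread by construction. In an alternative added after seeing the data, clusters 2 to 3 kb wide, the difference in score percentile changed sign to -2.79 on 2L and -1.33 on X, with replicate 1 of 2L near 0 (-0.0598) and replicate 2 of X still positive (4.74). Empty windows were 54 of 160 at 50 kb and 3 of 40 at 200 kb. The causes were not tested. Fewer regions enter the filtered settings, and the effect of that number was not tested either. The planned ratio of median scores was replaced by percentiles. No paired analysis was possible because neither input has a list to set beside its ChIP sample. As depth is unknown, nothing can be said of regions too weak to be listed.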

Other observations

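The combined list holds 12 regions typed as depleted, and 1 of them lies next to a centromere, on 2L from 21898664 to 21900298, at 1111 kb from the end, with a score of -0.00806. Replicate 1 lists a cluster of enrichment over the same bases, from 21898531 to 21900331, with a score of 0.141, at percentile 0.187 of its list. Neither replicate 2 nor the enriched regions of the combined list have one there.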
